A study of Mus musculus with 31 samples.

Results

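Cyp2e1, Cyp2f2, Pon1, Sfrp2 and Wif1 were chosen for their read counts on a high-fat diet, which went up in the male groups and down in the female groups. They are 5 of the 39017 genes in the count tables and 5 of the 14024 genes with enough reads to be tested. All 5 passed the filter on low counts, in part through the groups in which they are high. The study measured polyA RNA of the mouse gastrocnemius, a calf muscle, and asks how loss of MuRF1, sex and a high-fat diet shape its transcripts. MuRF1 is a ubiquitin ligase of muscle that is encoded by Trim63. Wild type mice and MuRF1 -/- mice of both sexes ate chow throughout or a lard-based 45% fat diet from 8 weeks of age, and muscle was taken at 30 weeks. The high-fat groups of MuRF1 -/- mice had 3 libraries in each sex, and the other 6 groups (wild type of either sex on either diet, and MuRF1 -/- of either sex on chow) had 4 libraries each.

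The 5 genes fall into 3 kinds. Cyp2e1 and Cyp2f2 encode cytochrome P450 enzymes, which sit in the endoplasmic reticulum, take electrons from a reductase and oxidise small molecules such as ethanol, ketones and naphthalene. Cyp2e1 is best known from liver and Cyp2f2 from the club cells of the airway and from liver. Pon1 encodes an esterase that liver secretes onto high-density lipoprotein, where it hydrolyses lactones and organophosphates. Sfrp2 and Wif1 encode secreted proteins that bind Wnt ligands outside the cell and keep them from their Frizzled receptors, and in muscle such proteins are known from stromal cells rather than from fibres.

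The 5 genes lie on 4 chromosomes of the mm10 build, as annotated by GENCODE M21. Cyp2e1 (ENSMUSG00000025479) is at chromosome 7, 140763739 to 140774987, on the plus strand. Cyp2f2 (ENSMUSG00000052974) is on the same chromosome and strand at 27119909 to 27133660. Pon1 (ENSMUSG00000002588) is on the minus strand of chromosome 6 at 5168090 to 5193946. Sfrp2 (ENSMUSG00000027996) is on the plus strand of chromosome 3 at 83766321 to 83774316. Wif1 (ENSMUSG00000020218) is on the plus strand of chromosome 10 at 121033960 to 121100650. Cyp2f2 and Sfrp2 each overlap 1 antisense gene, Gm15883 with 14 reads over the 30 libraries and Gm26771 with 0 reads.

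The promoters are shown as a description. The 5 genes were chosen for their shared diet pattern, and shared regulation was not tested. Each line gives the 100 bases that end just before the most upstream annotated start of the gene, from RefSeq for GRCm38.p6 and written along the strand of the gene. Capitals mark a match to 1 of 5 short motifs on either strand, and the matches do not overlap each other.
Cyp2e1: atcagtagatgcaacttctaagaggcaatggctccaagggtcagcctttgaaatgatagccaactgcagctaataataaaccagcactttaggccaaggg
Cyp2f2: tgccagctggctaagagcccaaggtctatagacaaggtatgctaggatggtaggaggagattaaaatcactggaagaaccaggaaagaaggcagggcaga
Pon1: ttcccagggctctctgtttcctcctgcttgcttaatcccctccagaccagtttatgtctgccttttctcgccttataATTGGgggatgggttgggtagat
Sfrp2: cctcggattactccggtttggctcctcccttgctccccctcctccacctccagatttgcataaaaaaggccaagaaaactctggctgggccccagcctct
Wif1: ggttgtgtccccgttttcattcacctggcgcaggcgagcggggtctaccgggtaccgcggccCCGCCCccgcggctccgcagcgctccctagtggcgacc

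The stretches shown span chr7:140763639-140763738 for Cyp2e1, chr7:27119809-27119908 for Cyp2f2, chr6:5193947-5194046 for Pon1, chr3:83766221-83766320 for Sfrp2 and chr10:121033860-121033959 for Wif1. The motifs searched were the TATA box TATAAA, the CCAAT box, the GC box GGGCGG, the glucocorticoid and androgen receptor core AGAACA and the nuclear receptor core AGGTCA, on both strands and over the 250 bases before the RefSeq start. That start lies 80 bases past the end of the printed stretch for Cyp2e1, 46 for Cyp2f2 and 44 for Wif1, so some matches lie outside the stretches. Among 32851 such windows, 12.4% held TATAAA, 33.8% CCAAT, 32.7% GGGCGG, 16.1% AGAACA and 14% AGGTCA. The window of Cyp2e1 held TATAAA beginning 31 bases before the RefSeq start, and CCAAT on the opposite strand at 68 and 210 bases. The window of Pon1 held CCAAT on the opposite strand at 23 and 213 bases. GGGCGG lay 82 and 197 bases before the start of Wif1, on opposite strands, and TATAAA lay on the opposite strand at 232 bases. Cyp2f2 held AGGTCA at 221 bases, and the window of Sfrp2 held 0 of the 5 motifs. No motif was thus present in all 5 windows.

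Libraries were grouped by the title that carries the animal number of the count table, because 18 of the 30 grouped records carry another animal number in their own title. For 4 libraries the record's own title would give another group. Trim63 checked the genotype in this grouping. It was at 109 to 254 CPM (counts per 1000000 counts of the library) in the 16 wild type libraries. In the 14 MuRF1 -/- libraries it was at 0.469 to 6.24 CPM. Ddx3y of the Y chromosome ran from 30.3 to 55.8 CPM in the male libraries and was at most 0.757 CPM in the female ones. Xist, which is transcribed from the silent X chromosome, ran from 67.7 to 271 CPM in females and was at most 1.44 CPM in males. These genes check genotype and sex only, and no gene checked the diet of a library. Acta1, the actin of the muscle fibre, was at 25700 to 45600 CPM in every library. Total counts ran from 9342028 to 14919379 per library, so that 3 counts equal 0.201 to 0.321 CPM. Female wild type chow 3, female MuRF1 -/- chow 1 and female MuRF1 -/- chow 3 stood apart by keratinocyte markers, and replicate 3 of male wild type chow, replicate 1 of female wild type chow and replicate 4 of the wild type females on high fat by Trim63 under 150 CPM.

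Cyp2e1 was the most abundant of the 5 genes per length in all 8 groups, from 0.865 CPM per kilobase of exon in male MuRF1 -/- chow to 26.9 in female MuRF1 -/- chow. In males on chow its level was 3.78, 3.81, 6.39 and 1.63 CPM in the 4 wild type libraries and 1.93, 0.903, 1.64 and 2.99 CPM in the 4 MuRF1 -/- libraries. On high fat it was 20.7, 13.7, 12.8 and 17.1 CPM in wild type males and 24.6, 20.3 and 5.04 CPM in MuRF1 -/- males. Every male high-fat library thus lay above every chow library of its genotype, although replicate 3 of male MuRF1 -/- high fat was lower than 1 of the wild type chow libraries. In females the order was the opposite. Wild type females held 51.2, 9.59, 34.8 and 23 CPM on chow and 5.54, 7.41, 4.82 and 1.63 CPM on high fat. MuRF1 -/- females held 67.3, 40.5, 94.6 and 29.8 CPM on chow and 5.25, 5.92 and 6.12 CPM on high fat. The 8 female chow libraries were spread widely but did not overlap with the 7 female high-fat libraries, which lay close together in MuRF1 -/- mice.

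As log2 fold changes with standard errors, the Cyp2e1 difference of high fat from chow was 2.05 ± 0.53 in wild type males and 3.02 ± 0.61 in MuRF1 -/- males. In females it was -2.50 ± 0.50 in wild type and -3.16 ± 0.56 in MuRF1 -/-. Averaged over genotypes these were 2.54 ± 0.40 in males, or 5.8-fold higher, and -2.83 ± 0.38 in females, or 7.12-fold lower. These differences chose the gene, so they carry no test. In the order of group means, male wild type high fat (16.1 ± 3.61 CPM, SD, n = 4) and female MuRF1 -/- high fat (5.76 ± 0.452 CPM, n = 3) were the only neighbours that differed by more than their spread. Bases 1646 to 1833, the end of the Cyp2e1 transcript, match transcripts of 58 other genes at 95% identity or more over at least 100 bases, so reads from there are uncertain.

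Cyp2f2 followed the same pattern at a lower level. Male chow libraries held 0.386, 0.431, 0.857 and 0.148 CPM in wild type and 0.439, 0.246, 0.0782 and 0.306 CPM in MuRF1 -/-, which is 1 to 11 reads per library. On high fat the values were 4.51, 1.71, 2.58 and 1.85 CPM in wild type males and 2.71, 1.54 and 0.576 CPM in MuRF1 -/- males. Neither genotype overlapped between diets in males. Female wild type chow libraries held 3.97, 0.921, 3.85 and 2.4 CPM, against 1.14, 1.63, 1.51 and 0.287 CPM on high fat. Replicate 2 of female wild type chow was below 3 of the high-fat libraries, so these groups overlapped. Female MuRF1 -/- libraries held 3.87, 3.08, 6.64 and 3.62 CPM on chow and 1.78, 1.22 and 0.886 CPM on high fat, without overlap. The Cyp2f2 diet difference was 2.54 ± 0.52 in wild type and 2.43 ± 0.64 in MuRF1 -/- males, and -1.18 ± 0.45 in wild type and -1.56 ± 0.47 in MuRF1 -/- females. The closest other transcript to that of Cyp2f2, apart from its antisense gene, was Cyp2g1 at 64.6% identity.

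Pon1 held 2 to 10 reads in each male chow library. Its levels there were 0.386, 0.718, 0.234 and 0.222 CPM in wild type and 0.176, 0.164, 0.313 and 0.689 CPM in MuRF1 -/-. Male high-fat libraries held 2.42, 1.18, 1.17 and 1.61 CPM in wild type and 4.74, 0.938 and 1.15 CPM in MuRF1 -/-. Replicate 1 of male MuRF1 -/- high fat was the highest male library, and the diets did not overlap in males of either genotype. Female wild type libraries held 1.91, 0.844, 3.26 and 1.1 CPM on chow and 0.71, 0.748, 0.944 and 0.0958 CPM on high fat. Female MuRF1 -/- libraries held 3.37, 2.43, 4.8 and 1.81 CPM on chow and 0.339, 0.609 and 1.06 CPM on high fat. The female wild type groups overlapped by 1 library, and the female MuRF1 -/- groups did not overlap. The Pon1 diet difference was 2.00 ± 0.58 and 2.56 ± 0.60 in wild type and MuRF1 -/- males, and -1.41 ± 0.53 and -2.04 ± 0.56 in wild type and MuRF1 -/- females.

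Sfrp2 was close to absent from male chow muscle. The wild type libraries held 0.154, 0.215, 0.468 and 0.148 CPM, and the MuRF1 -/- libraries held 0, 0.0821, 0 and 0.23 CPM, which is 4 reads in all. Male high-fat libraries held 0.918, 1.5, 0.667 and 2.66 CPM in wild type and 1.43, 0.737 and 0.288 CPM in MuRF1 -/-. The diets did not overlap within either genotype in males. The lowest MuRF1 -/- high-fat library rests on 4 reads, against 3 reads in the highest chow library of that genotype. At 0.288 CPM it was below the highest wild type chow library, at 0.468 CPM. Female wild type libraries held 2.14, 1.84, 4.22 and 1.4 CPM on chow and 1.56, 1.22, 1.98 and 0.192 CPM on high fat. Female MuRF1 -/- libraries held 2.95, 2.19, 4.64 and 1.59 CPM on chow and 0.593, 0.871 and 0.798 CPM on high fat. The female wild type groups overlapped broadly, whereas every female MuRF1 -/- high-fat library was below every chow library. The Sfrp2 diet difference was 2.51 ± 0.63 and 3.07 ± 0.89 in wild type and MuRF1 -/- males, the latter against a group near 0. It was -0.87 ± 0.46 and -1.73 ± 0.54 in wild type and MuRF1 -/- females.

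For Wif1 the diets were farther apart in females than in males. Female wild type libraries held 3.06, 3.3, 4.51 and 2.5 CPM on chow and 0.497, 0.204, 0.472 and 0.575 CPM on high fat. Female MuRF1 -/- libraries held 4.12, 3.08, 4.72 and 2.54 CPM on chow and 0.848, 0.522 and 1.51 CPM on high fat. The 8 female chow libraries lay above all 22 other libraries of the study. In males the counts were low and the diets overlapped in both genotypes. Male chow libraries held 0.463, 0.287, 0.779 and 0.296 CPM in wild type and 0.176, 0.41, 0.156 and 0.153 CPM in MuRF1 -/-. Male high-fat libraries held 1.5, 0.642, 1.5 and 0.242 CPM in wild type and 0.827, 0.402 and 0.576 CPM in MuRF1 -/-. The Wif1 diet difference was 1.09 ± 0.46 and 1.25 ± 0.59 in wild type and MuRF1 -/- males, and -2.88 ± 0.40 and -1.75 ± 0.39 in wild type and MuRF1 -/- females.

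**Figure D1:**
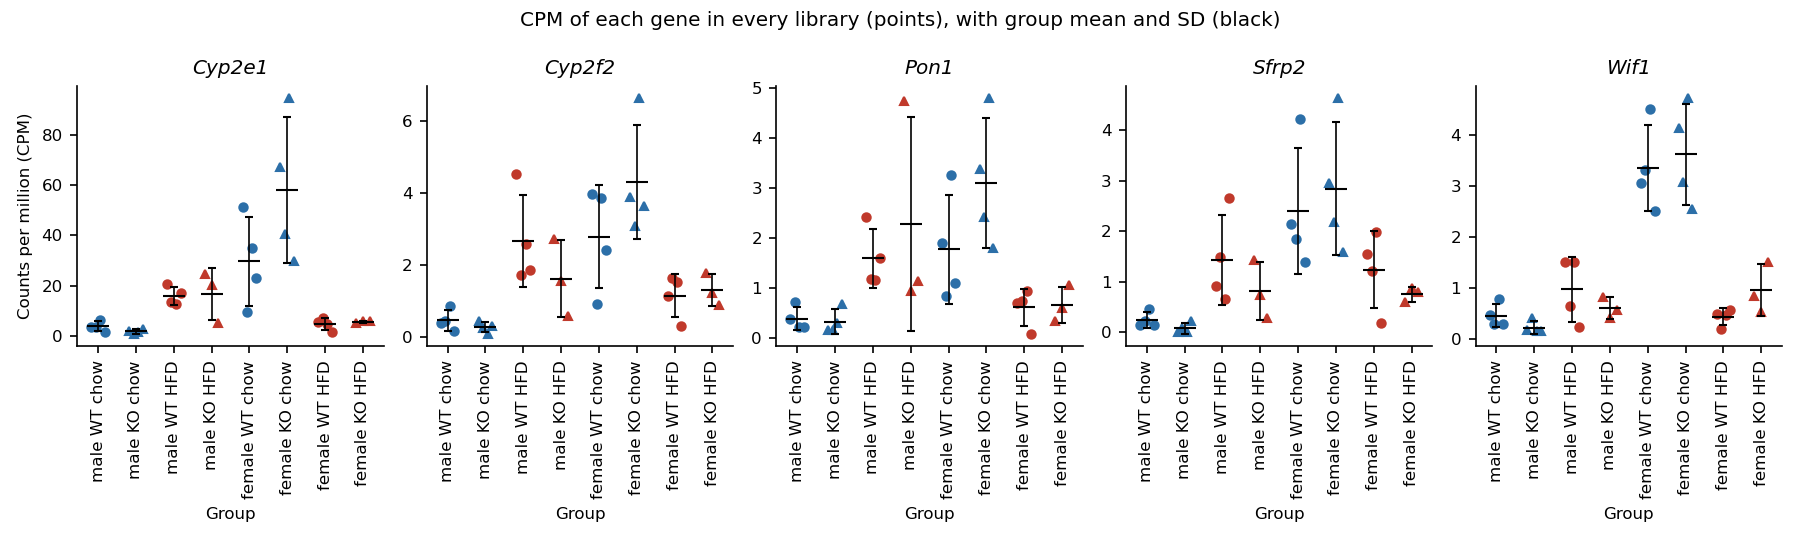
CPM of each of the 5 genes (vertical axes) in every library (points; circles wild type, WT, triangles MuRF1 -/-, KO; blue chow, red high fat, HFD), by group (horizontal axes), with the mean and SD of each group in black. For Cyp2e1 the 8 male chow libraries lie between 0.903 and 6.39 CPM and the 8 female chow libraries between 9.59 and 94.6 CPM.

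Counted by stratum, every high-fat library lay above every chow library in wild type males for 4 of the 5 genes, Wif1 being the exception, where 2.72% of all genes tested did so. In MuRF1 -/- males the same 4 of 5 genes did so, against 22.2% of all genes tested. In wild type females every high-fat library lay below every chow library for Cyp2e1 and Wif1, or 2 of 5, against 15.7% of all genes. In MuRF1 -/- females all 5 did, against 27.7% of all genes. The MuRF1 -/- strata set 3 high-fat libraries against 4 on chow, and the wild type strata 4 against 4. The choice of the genes fixed these counts.

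**Figure D2:**
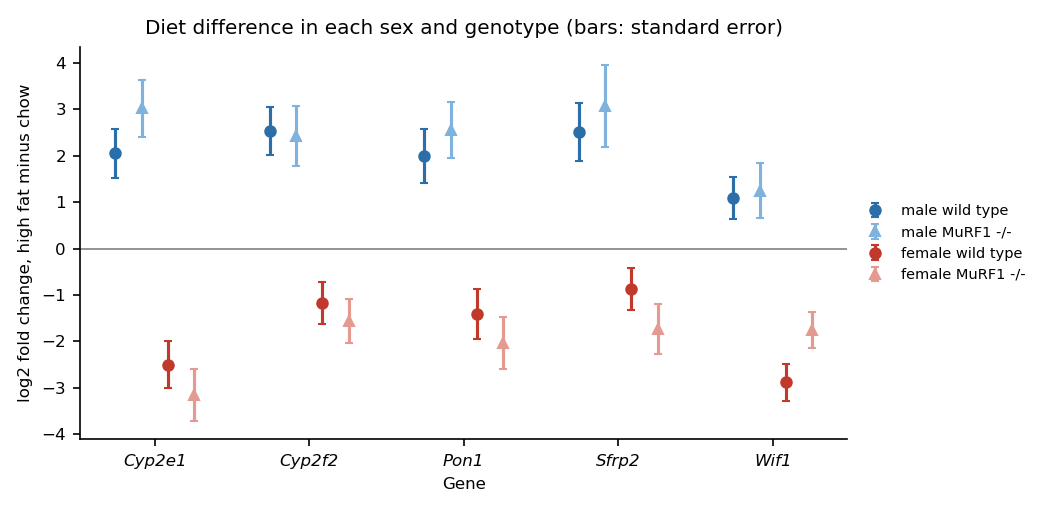
Log2 fold change of high fat minus chow (vertical axis) for each gene (horizontal axis) in the 4 combinations of sex and genotype, with standard errors as bars. The male values lie between 1.09 and 3.07 and the female values between -3.16 and -0.87.

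The 5 genes are not alone in this pattern. Of the 14024 genes tested, 103 (0.734%) were at least 1 higher on the log2 scale in males and at least 1 lower in females on high fat, and 11 had the reverse pattern. All 5 chosen genes are among the 103, ranking 9 for Cyp2e1, 14 for Sfrp2, 16 for Pon1, 20 for Cyp2f2 and 29 for Wif1 by the size of the difference between the sexes. The highest ranks went to Krt77 (1.71 in males and -6.93 in females) and Dsp (1.70 and -6.36), which encode a keratin and a desmosome protein of skin. Both are among 15 keratinocyte markers, whose sum was 104 to 200 CPM in 3 female chow libraries and at most 24.2 CPM in any other. Of these 15 markers 1 passed the test of the difference between the sexes. The part of the 3 libraries in the values of Krt77 and Dsp was not tested. Mup10, a major urinary protein gene, was at 3.52 in males and -3.21 in females. The male and female differences share no libraries.

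**Figure D3:**
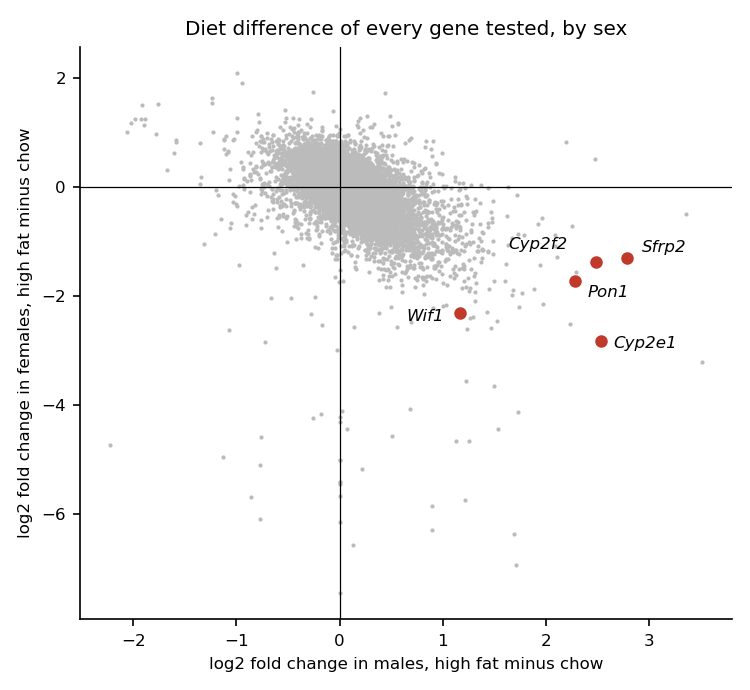
Log2 fold change of high fat minus chow in males (horizontal axis) against that in females (vertical axis), 1 point per gene tested, with the 5 chosen genes in red. The 5 genes lie in the lower right, between 1.17 and 2.79 in males and between -2.83 and -1.30 in females.

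Between the sexes the difference reversed with diet for Cyp2e1, Pon1 and Cyp2f2. On chow every one of the 8 female libraries lay above every one of the 8 male libraries for all 5 genes, which was so for 9.53% of all genes tested. The male minus female difference on chow was -3.74 ± 0.39 for Cyp2e1, -3.09 ± 0.38 for Cyp2f2, -2.46 ± 0.40 for Pon1, -3.92 ± 0.47 for Sfrp2 and -3.21 ± 0.30 for Wif1. On high fat it was 1.63 ± 0.39 for Cyp2e1, 1.55 ± 0.40 for Pon1 and 0.76 ± 0.35 for Cyp2f2. For Sfrp2 it was 0.18 ± 0.41 and for Wif1 0.27 ± 0.34, within 1 standard error of 0. These values share libraries with the diet differences and carry no test.

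The average of the sex difference over diet and genotype was not itself the value that chose the genes. It rests on the same libraries as the diet differences that chose them, so its p-values may not be free of that choice. This average was tested over all genes by quasi-likelihood in edgeR, with adjustment by Benjamini and Hochberg. In this average 4 of the 5 genes were lower in males (15 libraries) than in females (15 libraries), where 17.4% of all genes tested were. Sfrp2 was lower by the largest amount, with a log2 difference of -1.87 ± 0.33 (3.66-fold, edgeR adjusted p = 5.68e-05). Wif1 was lower by 2.77-fold (-1.47 ± 0.24, edgeR adjusted p = 1.92e-05). Cyp2f2 differed by -1.16 ± 0.27 (edgeR adjusted p = 0.00134) and Cyp2e1 by -1.05 ± 0.28 (edgeR adjusted p = 0.00572). For Pon1 the difference was -0.45 ± 0.30 and did not pass (edgeR adjusted p = 0.264). It did pass without male MuRF1 -/- high fat replicate 1, at -0.72 (edgeR adjusted p = 0.0367, the lowest of 38 alternatives, of which the highest was 0.665). Markers of some other cell types were lower in males as well. These were 12 of 16 of adipocytes, 14 of 16 of fibro-adipogenic progenitors, 11 of 12 of tendon cells and 10 of 12 of macrophages. Without the 3 libraries high in keratinocyte markers these counts were 10, 13, 9 and 9. In other lists 8 of 10 Schwann cell and 3 of 12 endothelial markers were lower, and 0 of 15 keratinocyte markers passed. Muscle fibre markers had 4 higher and 0 lower of 12. The part of these cell types in the result was not tested. In Cyp2e1, Cyp2f2 and Pon1 this average joins a male deficit on chow and a male excess on high fat, as given above. For Sfrp2 and Wif1 it joins a male deficit on chow and values near 0 on high fat (0.18 ± 0.41 and 0.27 ± 0.34). The 4 calls therefore do not show lower levels in males on both diets.

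Genotype was tested in the same way. By edgeR 0 of the 5 genes passed for the average difference of MuRF1 -/- from wild type, where 4.39% of all genes tested did. Neither did any by DESeq2, and 0 of the 5 had an unadjusted p below 0.05. The values were 0.10 ± 0.28 for Cyp2e1, -0.13 ± 0.27 for Cyp2f2, 0.34 ± 0.30 for Pon1, -0.66 ± 0.35 for Sfrp2 and -0.06 ± 0.23 for Wif1. Sfrp2 came closest (unadjusted p = 0.0696, edgeR adjusted p = 0.296). For the genotype difference in males minus that in females 0 of the 5 passed by edgeR or DESeq2, and 0.0285% of all genes did by edgeR. Wif1 had an unadjusted p of 0.00736 there and was the only 1 of the 5 with an unadjusted p below 0.05, at -1.37 ± 0.48 (edgeR adjusted p = 0.271). It was lower in MuRF1 -/- than in wild type males by -0.82 ± 0.59 on chow and -0.67 ± 0.47 on high fat, and higher in MuRF1 -/- females by 0.06 ± 0.31 and 1.19 ± 0.50. With counts simulated at the spread of these libraries, this contrast recovered 38% of genes given a 1.5-fold change and 79% of those given a 2-fold change. The genotype average recovered 83% and 96%. The changed genes were drawn at random from genes with a mean count of at least 10, not at the counts and spread of the 5. These shares therefore do not tell how often such a change would be found in the 5 genes.

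In the difference between the sexes in the diet effect, the other secreted Wnt antagonists went in the direction of Sfrp2 and Wif1 where they passed. Of 11 other genes of this kind 7 were tested, and for 3 of them the diet difference was higher in males than in females, with 0 lower. Over all genes 45.2% passed this test of the difference between the sexes in either direction and 23.6% were higher in males. The 3 were the Wnt-binding proteins Sfrp4 (1.58 ± 0.36, edgeR adjusted p = 0.000958), Sfrp5 (1.14 ± 0.31, edgeR adjusted p = 0.00437) and Sfrp1 (1.00 ± 0.28, edgeR adjusted p = 0.00461). Sfrp4, the closest in pattern, averaged 4.25 CPM in male wild type chow, 7.14 in male wild type high fat, 11.8 in female wild type chow and 7.72 in wild type females on high fat. In males 1 of the 7, Sfrp4, rose on high fat (0.90 ± 0.28), where 5.23% of all genes rose, and this call was lost in 12 of 30 fits without 1 library (edgeR adjusted p at most 0.112). In females Sfrp5 (-0.73 ± 0.21) and Sfrp4 (-0.68 ± 0.22) fell, where 21.1% of all genes fell. The Sfrp4 value was -0.29 and did not pass without the 3 libraries high in keratinocyte markers, nor did it pass without female wild type chow 3 or female MuRF1 -/- high fat 2 alone. The median difference between the sexes over the 7 was 1, beside 0.03 for all genes. In the sex average over both diets Dkk3, of the Dickkopf family, was 1.31 ± 0.09 higher in males, the opposite direction to Sfrp2 and Wif1. Sfrp4 (-1.57) and Sfrp5 (-0.53) were lower in males there.

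Wnt ligands, receptors and target genes were mixed. Among the 11 ligand genes tested the diet difference was higher in males for Wnt10b (1.51 ± 0.45) and Wnt2b (0.80 ± 0.28) and lower for Wnt9a (-0.60 ± 0.13) and Wnt4 (-0.85 ± 0.19). Wnt2b did not pass without the libraries high in keratinocyte markers or without female MuRF1 -/- high fat 2 (edgeR adjusted p at most 0.11). Among 16 receptor genes 5 were higher and 3 lower. Fzd4, a Frizzled receptor of vessels, was at 1.71 ± 0.20, having risen on high fat in males (0.62 ± 0.14) and fallen in females (-1.09 ± 0.15). Lrp6, the co-receptor, was at 0.83 ± 0.12, and Fzd9 was at -0.87 ± 0.18. Of 13 target genes 3 were higher, Apcdd1 (1.92 ± 0.39), Ccnd1 (1.15 ± 0.27) and Ccn4 (1.19 ± 0.48). The Ccn4 call was lost in 18 of 30 fits without 1 library and in 3 of 8 other settings (edgeR adjusted p at most 0.151), and 2 of 13 targets were higher without the libraries high in keratinocyte markers. Axin2, the target read most often as a sign of Wnt signalling, did not pass (0.41 ± 0.20, edgeR adjusted p = 0.0883). Its group means ran from 5.44 to 8.01 CPM.

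Other P450 genes were mostly too low to be tested. Of 70 other genes of families 1 to 4 only 14 were tested, and for 2 of them the diet difference was higher in males and for 1 lower, beside 23.6% of all genes that were higher. Without the libraries high in keratinocyte markers 1 was higher and 2 were lower of 15. The 3 genes were Cyp1b1 (1.51 ± 0.47), an oxidase of hydrocarbons and oestrogens, Cyp4v3 (1.14 ± 0.31), a fatty acid hydroxylase, and Cyp2d22 (-0.53 ± 0.15). Among 33 genes for electron donors and conjugating enzymes 7 were higher and 9 lower. The carboxylesterase Ces1f stood out at 4.75 ± 0.70, with 2.23 ± 0.55 in males and -2.52 ± 0.44 in females, on group means of 0.0411 to 2.18 CPM. Mgst1, a microsomal glutathione transferase, was at 1.59 ± 0.17.

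Pon3 had the directions of Pon1 among the genes of the paraoxonase family and of high-density lipoprotein. Of 11 tested, the diet difference was higher in males for 7 and lower for 0, with a median of 0.64. Pon3, the neighbour of Pon1 in the family, was at 0.94 ± 0.16, rising on high fat in males (0.36 ± 0.11) and falling in females (-0.58 ± 0.11). The male rise was lost in 13 of 30 fits without 1 library and in 4 of 8 other settings (edgeR adjusted p at most 0.147). Pon2 did not pass (-0.18 ± 0.09, edgeR adjusted p = 0.0986). The cholesterol exporter Abca1 was at 1.21 ± 0.25, the lipocalin Apod at 1.22 ± 0.30 and clusterin, Clu, at 0.64 ± 0.16. Abca1 (-0.96 ± 0.18) and Apod (-0.67 ± 0.21) fell in females and did not pass in males, and Clu rose in males (0.48 ± 0.12) and did not pass in females (-0.16 ± 0.12). Without the 3 libraries high in keratinocyte markers 5 of the 11 were higher. The main protein of high-density lipoprotein, Apoa1, had too few reads to be tested, with group means of at most 0.0268 CPM.

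Markers of several other cell types differed between the sexes in the direction of the 5 genes. In whole muscle, fewer cells of a type and less RNA per cell cannot be told apart. For the difference between the sexes in the diet effect, 11 of 12 tendon cell markers were higher and 0 lower (median 2.10). The counts were 12 and 0 of 16 for fibro-adipogenic progenitors, 11 and 1 of 16 for adipocytes (median 1.19), 10 and 0 of 12 for macrophages, 5 and 2 of 12 for endothelial cells and 4 and 0 of 10 for Schwann cells. Muscle fibre markers went the other way, with 1 higher and 8 lower of 12 (median -0.52). Brown adipocyte markers had 0 higher and 2 lower of 3, and keratinocyte markers 1 higher and 0 lower of 15. Ucp1 of the brown adipocyte list was at 0 in 28 of the 30 libraries and at most at 0.545 CPM. Which cells the other markers of that list came from was not tested. Over all genes tested 23.6% were higher. Without the 3 libraries high in keratinocyte markers, 10 of 12 tendon, 9 of 16 progenitor and 8 of 16 adipocyte markers were higher. In males alone 4 of 12 tendon, 6 of 16 progenitor, 2 of 16 adipocyte and 7 of 12 macrophage markers rose on high fat. So did 1 of 12 endothelial and 0 of 10 Schwann cell markers, beside 5.23% of all genes. In females 11, 8, 11, 7, 3 and 3 of these fell, beside 21.1% of all genes. In the endothelial list 4 also rose in females. The part of these cell types in the result was not tested.

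**Figure D4:**
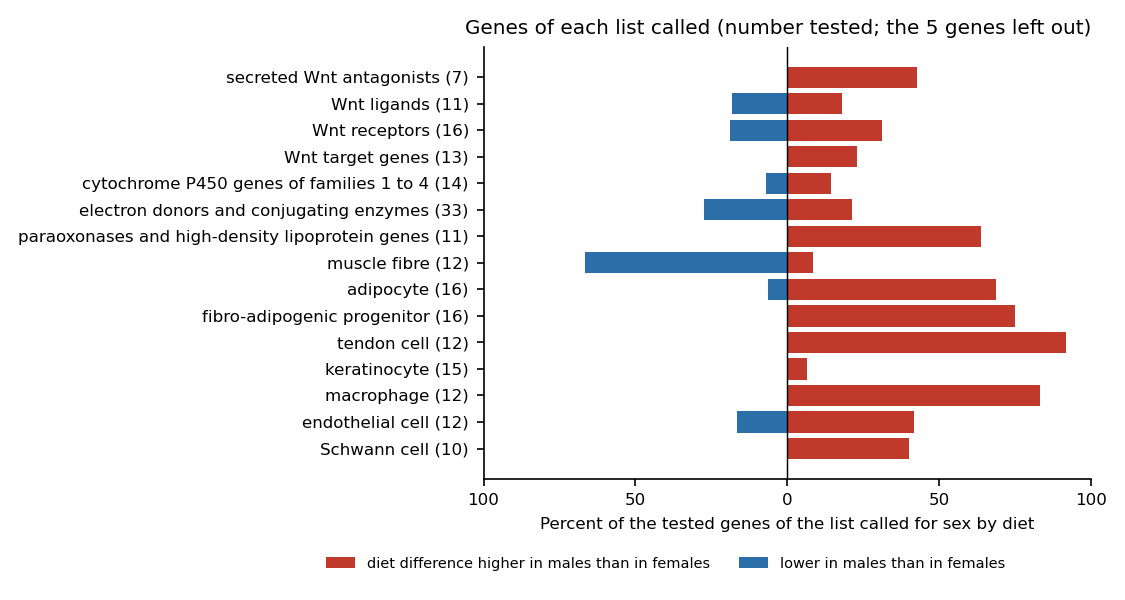
Percent of the tested genes of each list (horizontal axis; number tested in brackets) whose diet difference was higher (red) or lower (blue) in males than in females by the edgeR test, the 5 chosen genes left out. Tendon cell, macrophage and fibro-adipogenic progenitor markers lie mostly to the right and muscle fibre markers to the left.

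The 16 adipocyte markers summed to 343 to 534 CPM in male chow and 325 to 568 CPM in male high-fat libraries. In females the sum was 491 to 1070 CPM on chow and 413 to 687 CPM on high fat. Plin4, Fabp4 and Cfd made up 48.1%, 22.5% and 10.3% of that sum and Adipoq 4.01%, and 0 of the 16 were at 0 throughout. Which cells these transcripts came from was not tested. Tendon markers summed to 87 to 235 CPM in male chow, 165 to 312 in male high-fat, 316 to 676 in female chow and 79.8 to 341 in female high-fat libraries. The progenitor sum was 497 to 2400 CPM in male chow, 1610 to 2960 in male high-fat, 2920 to 4640 in female chow and 1330 to 3210 in female high-fat libraries. The highest libraries for all 3 sums were thus female chow libraries, as they were for the 5 genes. Adipocyte sums overlapped between the diets in males, where Cyp2e1 levels did not within a genotype, but Cyp2e1 was chosen for its diet differences. The sum need not follow each marker. Of the 16 markers 2 rose in males on high fat and 14 did not pass. The log2 diet difference was 2.29 in males and -1.57 in females for Cfd, and 1.31 and -1.64 for Adrb3.

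Cyp2e1 was also set against Adipoq, the adiponectin gene that defines adipocytes. In wild type males the ratio was 0.14 to 0.34 on chow and 0.757 to 1.68 on high fat, and in MuRF1 -/- males 0.173 to 0.396 and 0.427 to 2.18. In wild type females it was 0.458 to 1.14 on chow and 0.2 to 0.283 on high fat, and in MuRF1 -/- females 1.05 to 1.47 and 0.279 to 0.329. The diets did not overlap in any of these 4 strata. The same libraries and differences chose the gene, so these ratios are a description. For Wif1 the ratio to Adipoq overlapped between the diets in all 4 strata. For Cyp2f2 it was apart in wild type males only, 0.0127 to 0.0456 on chow and 0.0947 to 0.209 on high fat. The Sfrp2 ratio was apart in wild type males and MuRF1 -/- females. The Pon1 ratio was apart in males of both genotypes and in MuRF1 -/- females, where it was 0.0629 to 0.0747 on chow and 0.018 to 0.0553 on high fat. Set against the sum of the 16 adipocyte markers, more strata were apart. Per 100 counts of that sum, Wif1 was at 0.407 to 0.671 on chow and 0.0297 to 0.139 on high fat in wild type females, and at 0.407 to 0.464 and 0.0928 to 0.277 in MuRF1 -/- females, and it overlapped in males. Cyp2f2 was apart in MuRF1 -/- males too, at 0.0152 to 0.118 on chow and 0.143 to 0.644 on high fat, and in MuRF1 -/- females, at 0.417 to 0.621 and 0.163 to 0.326.

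**Figure D5:**
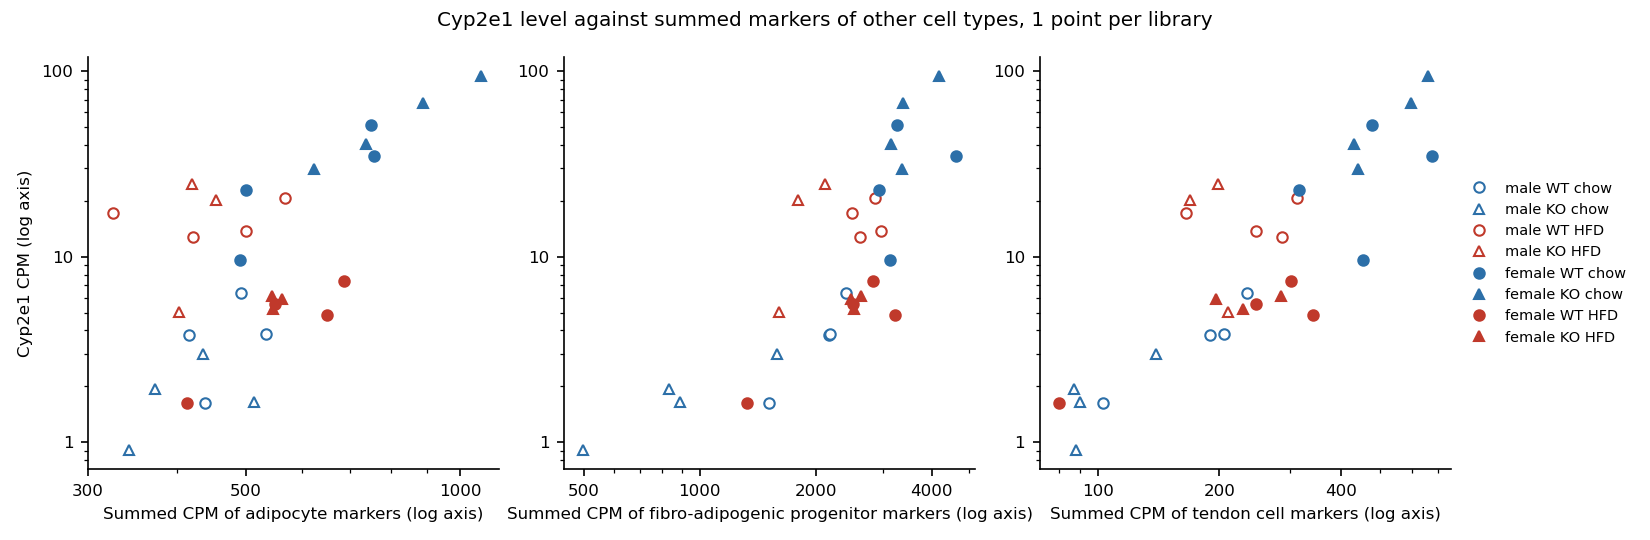
Cyp2e1 CPM (vertical log axes) against the summed CPM of adipocyte, fibro-adipogenic progenitor and tendon cell markers (horizontal log axes), 1 point per library (open male, filled female; blue chow, red high fat; circles wild type, triangles MuRF1 -/-). Male high-fat libraries have adipocyte sums of 325 to 568 CPM and hold 5.04 to 24.6 CPM of Cyp2e1. Male chow libraries have sums of 343 to 534 CPM and hold 0.903 to 6.39 CPM. Cyp2e1 was chosen for its diet differences, and the part of adipocytes in them was not tested.

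The sum of 16 hepatocyte markers was 6.32 to 37.8 CPM over the 30 libraries, and 2 of the 16 were at 0 throughout. Hp, the haptoglobin gene, made up 87.1% of it at 4.79 to 36.4 CPM, and Trf, the transferrin gene, 10.5%. These were the 2 markers with enough reads to be tested, and their diet differences did not pass in either sex. The other 14 stayed below 1 CPM in each library, among them Alb, which defines hepatocytes, at 0 to 0.888 CPM. The club cell gene Scgb1a1 was at 0 in 27 of the 30 libraries and at most at 0.0779 CPM, and 0 of 6 club cell markers could be tested. Skin markers were present in a few female chow libraries, where their sum reached 116 CPM in wild type and 200 CPM in MuRF1 -/- mice, beside 24.2 CPM at most in all male and female high-fat libraries. Without the 3 libraries high in these markers the female diet difference was -2.45 ± 0.39 for Cyp2e1, -1.11 ± 0.36 for Cyp2f2, -1.23 ± 0.41 for Pon1, -0.82 ± 0.38 for Sfrp2 and -2.06 ± 0.31 for Wif1. The sign stayed the same for each gene, and the Sfrp2 value moved the most in proportion.

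Within groups, 4 of the 5 genes were related to each other across animals by Pearson's r, and Wif1 was not shown to be. The share of all genes with such relations was not computed, so these relations do not set the 4 genes apart. With Cyp2e1, Cfd (0.883) and Syk (0.83) had a higher r than Cyp2f2 (0.822). After the mean of each group was subtracted from log2 CPM, 30 relations among the 5 genes and with 4 marker sums were computed over the 30 libraries, with permutations within groups and adjustment over the 30. Cyp2e1 and Cyp2f2 were related with Pearson's r = 0.822 (permutation p = 1e-04, adjusted 0.00255) and Spearman's rho = 0.8 (permutation p = 2e-05, adjusted 6e-04), and r was 0.748 without the 2 farthest libraries. Pon1 and Sfrp2 followed at r = 0.68 (permutation p = 0.00181, adjusted 0.00679) and rho = 0.614 (permutation p = 0.00248, adjusted 0.0106), and r was 0.626 without the 2 farthest. Cyp2e1 was related to Pon1 with r = 0.658 (permutation p = 0.00321, adjusted 0.0107) and rho = 0.613 (permutation p = 0.00434, adjusted 0.013), and to Sfrp2 with r = 0.655 (permutation p = 0.00181, adjusted 0.00679) and rho = 0.647 (permutation p = 0.00115, adjusted 0.0069). Without the 2 farthest libraries these were 0.565 and 0.612. Cyp2f2 had r = 0.541 with Pon1 (permutation p = 0.0214, adjusted 0.0378) and 0.536 with Sfrp2 (permutation p = 0.0199, adjusted 0.0373), while rho, at 0.448 and 0.449, did not pass (permutation p = 0.0405 and 0.0389, both adjusted 0.0759). Without the 2 farthest libraries these r were 0.373 and 0.499. Of the 30 relations 19 passed by r, and 0 of these 19 passed with only the libraries that both animal numbers put in 1 group, where r ran from 0.226 to 0.744 and the lowest adjusted p was 0.066. None of the 4 relations of Wif1 to the other genes passed, with r between -0.096 and 0.202 (permutation p from 0.307 to 0.986) and rho between -0.008 and 0.258 (permutation p from 0.22 to 0.971).

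The relations to marker sums are given by sum. No test compared the sums, and the share of all genes so related was not computed. The progenitor sum had r = 0.689 with Pon1 (permutation p = 0.00017, adjusted 0.00255; rho = 0.703, permutation p = 0.00025) and r = 0.647 with Cyp2e1 (permutation p = 0.00039, adjusted 0.0039; rho = 0.655, permutation p = 0.00079). Without the 2 farthest libraries r was 0.717 and 0.656. The adipocyte sum had r = 0.624 with Cyp2e1 (permutation p = 0.00076, adjusted 0.00456; rho = 0.595, permutation p = 0.00331) and r = 0.363 with Sfrp2, which did not pass (permutation p = 0.111; rho = 0.347, permutation p = 0.107). Without the 2 farthest libraries these were 0.634 and 0.416. With Cyp2f2 r was 0.5 for the adipocyte (permutation p = 0.0128; rho = 0.505, permutation p = 0.0128), 0.509 for the progenitor (permutation p = 0.0162; rho = 0.549, permutation p = 0.00665) and 0.577 for the tendon sum (permutation p = 0.00868; rho = 0.532, permutation p = 0.00685). Without the 2 farthest libraries these were 0.403, 0.682 and 0.385. The keratinocyte sum did not pass with Cyp2e1 (r = 0.321, permutation p = 0.167) or Cyp2f2 (r = 0.227, permutation p = 0.265). By r it passed with Pon1 (0.387, permutation p = 0.0281, adjusted 0.0444) and Sfrp2 (0.401, permutation p = 0.013, adjusted 0.0279), but by rho it did not (permutation p = 0.138 and 0.0786), and r was 0.21 and 0.241 without the 2 farthest. The progenitor sum with Sfrp2 (r = 0.618, permutation p = 0.00381) and the adipocyte sum with Pon1 (r = 0.587, permutation p = 0.00169) passed as well. The tendon sum passed with Pon1 (r = 0.656, permutation p = 0.00058), Cyp2e1 (0.541, permutation p = 0.0101) and Sfrp2 (0.551, permutation p = 0.0281). By rho Sfrp2 did not pass there (adjusted permutation p = 0.0768). Without the 2 farthest libraries these r of the tendon sum were 0.555, 0.353 and 0.344. The tendon sum had r = 0.274 with Wif1, which did not pass (permutation p = 0.182; rho = 0.383, permutation p = 0.0615; r = 0.474 without the 2 farthest).

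The genes most like each of the 5 were sought among 12633 or 12634 genes with a mean of at least 0 on the log2 CPM scale, by Pearson's r over the 30 libraries with group means subtracted. For Cyp2e1 they were Cfd, the adipocyte-secreted complement factor D (0.883), Syk (0.83), Cyp2f2 (0.822), the growth factor Igf1 (0.822) and Ptpn9 (0.818). For Cyp2f2 they were Cyp2e1 (0.822), Cfd (0.805), Acsl5 (0.799), Spp1 (0.792) and Csrp1 (0.791). Pon1 was most like Trabd2b (0.843), Sema4a (0.803), Plekho2 (0.801), Anpep (0.796) and Vwf (0.772). Sfrp2 was most like Ildr2 (0.83), complement C3 (0.818), Ppp1r18 (0.816), Anpep (0.799) and St3gal1 (0.786). Wif1 had no gene above 0.616, which was Gm10157, followed by Nr1i3 (0.601). With the group means kept, Wif1 was most like Abi3bp (0.871) and the tendon gene Kera (0.854), and Cfd headed the order for Cyp2f2 (0.93) and Sfrp2 (0.934). These are descriptions, since genes measured in the same library share its depth.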

How the data were processed

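Gene counts of 31 gastrocnemius libraries were used. The authors deposited raw whole-number counts per Ensembl gene, 1 table a library. The submitters' processing notes name the tools bcl2fastq and featureCounts and the build mm10. The aligner, the release of the annotation and how strand was set are not given in the sources. Reads of antisense and overlapping genes may therefore mix. Per the labels' protocols the library kit was stranded and selected polyA RNA. Symbols were found for 37607 of 39017 identifiers, and genes without one held 0.113% of counts.

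Libraries took the group of the title that carries their animal number, and 1 library whose number is in no title was left out, leaving 30 in 8 groups. The labels name different animals, and 42 pairs within groups differed beyond sampling noise. Differences were fitted with edgeR 4.0.16 (limma 3.58.1, R 4.3.3), with TMM scaling, a minimum count of 10 in filterByExpr, robust quasi-likelihood, 1 coefficient a group, and Benjamini-Hochberg adjustment at 0.05 over 14024 genes. The common dispersion of 0.0202 corresponds to 14.2% variation. CPM of single libraries are not TMM-scaled, and log2 CPM used a prior count of 2. The fits were tested on simulated data. Transcripts were compared with BLAST 2.17.0, and promoters are RefSeq's. Alternatives were DESeq2 1.42.0, RLE size factors, no filter, a replicate block, other groupings and left-out libraries.

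The 5 genes and all lists were chosen with earlier results of these data known. Genes named are the 5, up to 4 called genes of smallest p per pathway list and contrast (not all printed), the 5 most alike, and label and cell markers. Ranks among the 103, Axin2, Pon2 and Apoa1 were named after their values were seen.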

Additional observations from a re-analysis of the deposited data

Results flagged for a closer look

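In male MuRF1 -/- chow, Wif1 was 0.41 CPM in replicate 2 and 0.153 to 0.176 CPM in the other 3, a gap of 0.913 of the range of the group. This is 5 reads against 2 each. It was the only 1 of 30 groups of values with such a library, and chance gives about 1 in 20.

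The library that has no group held 14.5 CPM of Cyp2e1, 1.24 CPM of Cyp2f2 and 2.1 CPM of Pon1, each above the highest of the 8 male chow libraries.

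By the edgeR test of the difference itself, the diet effect of these named pathway genes differed between the sexes (log2, males minus females). Wnt antagonists were Sfrp4 1.58, Sfrp5 1.14 and Sfrp1 1.00. Wnt ligands were Wnt10b 1.51, Wnt2b 0.80, Wnt9a -0.60 and Wnt4 -0.85. Receptors were Fzd4 1.71, Lrp6 0.83, Lgr4 0.54 and Fzd9 -0.87, and targets were Apcdd1 1.92, Ccn4 1.19 and Ccnd1 1.15, the Ccn4 call being lost in 18 of 30 fits without 1 library. P450 genes were Cyp1b1 1.51, Cyp4v3 1.14 and Cyp2d22 -0.53. Conjugating enzymes were Ces1f 4.75, Mgst1 1.59, Gstm1 -0.66 and Gstp1 -0.82. Lipoprotein genes were Apod 1.22, Abca1 1.21, Pon3 0.94 and Clu 0.64.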

How the results depend on the processing

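The sex averages of Cyp2e1, Cyp2f2, Sfrp2 and Wif1 kept their sign and passed in all 30 fits without 1 library and in all 8 other settings, with log2 values from -1.14 to -0.86, -1.30 to -1.03, -2.19 to -1.63 and -1.69 to -1.34. The diet differences of all 5 genes kept their sign in the same settings. Of 95 calls of single list genes, 57 were kept in all settings, 23 were lost without some library and 33 in another setting. All 19 relations that passed by r were lost in at least 1 setting.

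Same-numbered libraries did not pair (99 pairs, correlations from -0.318 to 0.457, 33 over 0.1). With the replicate block 997 genes passed for the genotype average in place of 615, and 12 in place of 4 for genotype by sex. Grouping all 31 libraries by their own titles goes against Trim63 or Ddx3y in 5 libraries, and gave 128 and 0 genes, DESeq2 gave 97 for genotype by sex, and edgeR counted 1428 genes there at an unadjusted p under 0.05. Without the 3 libraries high in keratinocyte markers 237 genes passed for the genotype average and 3833 (in place of 5964) for diet in females. Without the 3 wild type libraries low in Trim63, 953 passed for the genotype average. Without the filter 710 passed for diet in males in place of 1118.

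Without 1 library at a time, counts ran from 390 to 1203 for the genotype average, from 2 to 217 for genotype by sex and from 458 to 1989 for diet in males. By over 1.5 times it moved for the genotype average without replicate 4 of wild type males on chow (924), 4 of MuRF1 -/- males on chow (1020), 2 of MuRF1 -/- males on high fat (390) and 4 of wild type females on high fat (1203). For diet in males it did so without 4 of wild type males on chow (574), 1 and 2 of MuRF1 -/- males on chow (717 and 617), 1, 2 and 3 of wild type males on high fat (644, 685 and 1989) and 1 and 2 of MuRF1 -/- males on high fat (458 and 625). For genotype by sex it did so without, in the same order of male groups, 4 (49 genes), 1 and 4 (9 and 217), 4 (7) and 1 and 2 (23 and 2), and without 3 of wild type females on chow (29), 4 of MuRF1 -/- females on chow (7), 1 and 3 of wild type females on high fat (10 and 11) and 3 of MuRF1 -/- females on high fat (2).

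Some values changed sign, among them the relation of Pon1 to the keratinocyte sum, which had passed. By own titles these were the genotype average of Cyp2e1 (-0.15) and genotype by sex of Pon1 (0.48, and 0.11 with only the libraries on which both numbers give the same group). The genotype average of Cyp2e1 was -0.05 without the keratinocyte-high libraries, and that of Wif1 0.06 without the wild type libraries low in Trim63. Without 1 library, genotype by sex of Pon1 ran from -0.72 to 0.06 and the genotype average of Wif1 from -0.19 to 0.03. Relations by own titles were 0.558 for Cyp2e1 and Wif1, 0.363 for Sfrp2 and Wif1 and 0.333 for Wif1 and the progenitor sum. With only libraries of 1 group by both numbers they were 0.014 for Cyp2e1 and Wif1 and -0.025 for Sfrp2 and the adipocyte sum. Without the keratinocyte-high libraries they were -0.03 for Pon1 and Wif1, and -0.101, -0.198, -0.054 and -0.547 for the keratinocyte sum with Cyp2e1, Cyp2f2, Pon1 and Wif1. Without the libraries low in Trim63, Cyp2e1 and Wif1 were at 0.004. Without 1 library, relations of Wif1 ran from -0.087 to 0.084 with Cyp2e1, -0.013 to 0.204 with Pon1, -0.177 to 0.119 with Sfrp2, -0.103 to 0.245 with the adipocyte sum and -0.166 to 0.111 with the progenitor sum. Except where shown above, the cause was not tested.

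No library exceeded 3 times the median adipocyte sum, so that setting gave no value. Depth limits Pon1, Sfrp2, Wif1 and Cyp2f2 in males on chow, where the libraries hold 0 to 11 reads. P-values measure the spread between these animals, and no label gives an extraction or sequencing batch.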

Other observations

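The library whose animal number is in no title held 152 reads of Cyp2e1, 13 of Cyp2f2, 22 of Pon1, 4 of Sfrp2 and 2 of Wif1, in a total of 10485009. Its levels were 14.5, 1.24, 2.1, 0.381 and 0.191 CPM. Trim63 was at 107 CPM, Ddx3y at 51.7 CPM and Xist at 0.0954 CPM. The record's own title places it with male MuRF1 -/- high fat, which its Trim63 level goes against, since the MuRF1 -/- libraries were at most at 6.24 CPM.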
